A study of Mus musculus with 21 samples.

Results

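Late ML1 leukemia was compared with the unengrafted state in Nes low cells, the bone marrow mesenchymal stromal cells that carry a low level of a Nestin-driven reporter. The comparison rests on 6 of the 21 RNA-seq libraries of these cells analyzed here, 3 titled as late ML1 (ML1 late, replicates 581, 582 and 583) against 3 titled as untreated controls (ctrl, replicates 373, 374 and 375). The libraries were chosen by their sample titles and not by any measured value. For ML1 late, the treatment field of the labels reads unengrafted, whereas the title and the time point field place the same libraries at a late point of leukemia, and the titles were followed.

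All hosts were NSG mice, an immunodeficient strain that lacks lymphocytes and tolerates human grafts, and they carried a transgene in which the Nestin promoter drives green fluorescent protein. ML1 and HL60 are established human acute myeloid leukemia (AML) cell lines, and the labels place transplantation into unconditioned mice at an age of 8 to 12 weeks. ML1 late hosts carried ML1 cells until the marrow was heavily engrafted, ctrl hosts carried no human cells, and the labels give no age for ctrl and no age at harvest for either group, for which the methods give 1 range over the engrafted mice. Beside them, the 21 libraries hold 3 of late HL60 leukemia (HL60 late) and 12 of early ML1 or HL60 leukemia. By the paper's account, the human cells of early and late hosts were lines that release sLP-mCherry, a lipid-permeable red protein that nearby cells take up. In early leukemia, labeled (ch+) and unlabeled (ch-) stromal cells were sorted apart. Bones were cut, digested with collagenase and dispase and crushed, human and mouse blood cells were removed with magnetic beads, and stromal cells were sorted by their reporter from the rest after staining for CD45, for Ter119 on red cells and for CD31 on endothelium, so each library is a mixture of whatever stromal cells carried a low reporter level.

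Marrow stromal cells that surround the sinusoids make CXCL12 and stem cell factor, a pair of signals that hold blood stem cells in place and keep them alive. They are called CXCL12-abundant reticular (CAR) cells, carry the leptin receptor, and can give rise to fat cells and to osteoblasts, the cells that deposit type I collagen and mineralize it into bone. A Nestin reporter also marks cells around arterioles, which share genes with smooth muscle and pericytes. Nes low cells are therefore a place where stem cell support, bone formation and vessel wall genes can be read side by side.

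The deposited values are the authors' regularized log values. Their methods name a log10 scale, on which the highest values would be impossible read numbers, so the values were read as log2, and the fold values below rest on that reading. The whole reads behind them were not recoverable, and the depth of single libraries is not given. The labels do not say whether the 3 libraries of a group came from separate mice, and p-values measure only the spread between these libraries. On the unlogged scale, the values of a ctrl library added up to 11.9, 12.8 and 14.2 megacounts of normalized signal and those of an ML1 late library to 7.46, 7.27 and 7.32. An rRNA gene, CT010467.1, made up 29.7% to 34.2% of the sum in ctrl and 16.8% to 22.6% in ML1 late. Transcripts of the mitochondrial genome made up 5.95%, 6.27% and 6.65% of the sum in ctrl and 8.59%, 14.4% and 8.04% in ML1 late, replicate 582 standing apart with the highest share. AY036118, a noncoding gene inside that rRNA gene, had log2 values of 17.25, 15.43 and 19.01 in ctrl and 0.94, 0.97 and 1.22 in ML1 late (log2 fold change −16.19, adjusted p = 2.87e-08, limma). For the rRNA gene the late groups were the low ones, since its share was 26.5% to 38.7% in the 12 early libraries and 24.1% to 26.2% in HL60 late. For AY036118 ctrl was the high group, since the early and HL60 late libraries had 1.22 to 1.87, apart from ML1 early ch- replicate 544 at 15.3. The part of either gene in the results below was not tested.

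Pearson's r over the 12980 tested genes was 0.972 to 0.976 between libraries of ML1 late and 0.938 to 0.948 between those of ctrl, and no ML1 late library reached an r above 0.904 with a ctrl library. On the first principal component, which held 24.5% of the variance among all 21 libraries, the ctrl libraries lay at −22.6, −25.7 and −31.1, the HL60 late libraries at 30.5, 31.9 and 34.9, and the ML1 late libraries at 59.8, 64.4 and 63.3. ML1 late was the group farthest from ctrl on this axis, with no overlap with any other group.

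**Figure D1:**
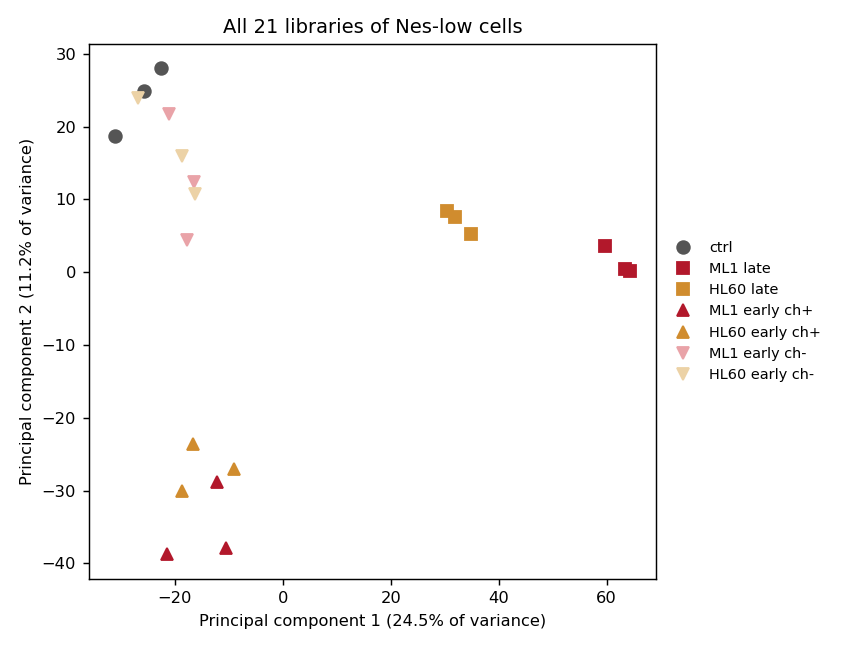
Each point is 1 of the 21 libraries of Nes low cells, placed by its first (horizontal) and second (vertical) principal component of the log2 values of the tested genes, with the share of variance on each axis and symbols by group. The 3 ML1 late libraries lie at 59.8 to 64.4 on the first component, and the 3 ctrl libraries at −31.1 to −22.6.

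Genes behind the sort were checked first. Nes, the gene whose promoter drives the reporter, had log2 values of 7.14, 7.61 and 7.43 in ctrl and 7.87, 7.34 and 7.84 in ML1 late, and the ranges of the groups overlapped (log2 fold change 0.29, standard error 0.28, adjusted p = 0.583, limma). Ptprc, which encodes the blood cell antigen CD45, had 2.49, 2.58 and 2.61 in ctrl and 2.36, 2.37 and 2.44 in ML1 late. Regularization draws a gene with few reads toward its mean over all libraries, so values near 2 may stand for few or no reads. Pecam1, which encodes the endothelial antigen CD31, averaged 5.59 ± 0.36 in ctrl and 4.57 ± 0.05 in ML1 late (SD, n = 3), a log2 fold change of −1.02 (adjusted p = 0.0541, limma) that was no longer called without ctrl replicate 375 (−0.82) or without any 1 of the ML1 late libraries (−1.05 to −1.01). The defining genes of CAR cells, Lepr and Cxcl12, were high in all 6 libraries, at 12.24 or more, so the mesenchymal label holds for both groups, although the extraction text of the labels, worded alike for other libraries, speaks of sorted CD31+ endothelial cells.

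Against ctrl, 2853 of the 12980 tested genes, 22.0%, were deregulated in ML1 late Nes low cells at a Benjamini-Hochberg adjusted p under 0.1 (limma, two-sided). Of these, 1284 were higher (9.89% of the tested genes) and 1569 lower (12.1%), and the typical size of these changes was a log2 difference of 1.21 (median). The largest changes were decreases: 369 genes fell by 2 or more on the log2 scale and 135 rose by as much. All ML1 late libraries lay above all ctrl libraries for 2167 of the 12980 tested genes, 1192 of them called, and below them for 2225, 1461 of them called. Bringing every library to the same total, which raises each ML1 late value because the ML1 late sums are smaller, shifted the median change of the tested genes from 0.03 to 0.84, by 0.82. It gave 8783 called genes, 93.1% of them higher against 45.0% as deposited, and 1894 of the 2853 genes were called in the same direction. Leaving rRNA and mitochondrial genes out of the totals gave 6958 called genes, 89.0% of them higher. The values below are as deposited, relative to a median change near 0 over all tested genes.

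Genes of bone formation fell steeply. Of 24 tested genes for bone matrix and mineralization, 20 fell and 2 rose, with a median log2 fold change of −2.89 against 0.03 over all tested genes. Osteocalcin, a small protein of mature osteoblasts that binds bone mineral, is encoded in the mouse by Bglap and the adjacent Bglap2, with the related Bglap3 close by. Bglap (ENSMUSG00000074483, chromosome 3 from 88383501 to 88384464 of GRCm38) had log2 values of 15.25, 15.27 and 15.36 in ctrl and 10.04, 9.32 and 9.63 in ML1 late. The ML1 late libraries were far below every ctrl library, a 49.5-fold lower mean (log2 fold change −5.63, standard error 0.15, adjusted p = 4.48e-22, limma). Bglap2 fell by 5.48 and Bglap3 by 4.77 on the log2 scale, but the genes are near-identical copies on chromosome 3 between which the counting may have moved reads, so their separate values are uncertain.

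Enzymes that start mineralization fell with osteocalcin. Phospho1 (ENSMUSG00000050860, chromosome 11 from 95824499 to 95832140), a phosphatase that releases phosphate inside matrix vesicles, had 11.03, 10.75 and 10.73 in ctrl and 6.52, 5.26 and 6.03 in ML1 late. The drop of 4.90 (standard error 0.24, adjusted p = 4.77e-16, limma) exceeded the spread within either group, with replicate 582 the lowest. Its exons overlap those of Zfp652 on the same strand and Abi3 on the other, so some of its reads may belong to these genes. Alpl, the tissue-nonspecific alkaline phosphatase that breaks down the mineralization inhibitor pyrophosphate, fell by 2.99, Smpd3, a sphingomyelinase needed for mineralization of the skeleton, by 4.01, and Ifitm5, a membrane protein of osteoblasts, by 3.78. Slc13a5, a citrate transporter that supplies citrate to bone mineral, had 11.49, 11.02 and 11.70 in ctrl and 7.49, 6.38 and 6.12 in ML1 late and fell by 4.74 (adjusted p = 1.14e-15, limma), though a noncoding gene overlaps its exons on the other strand.

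The chief protein of bone followed. Col1a1 (ENSMUSG00000001506, chromosome 11 from 94936224 to 94953042), which encodes a chain of type I collagen, had 20.10, 20.27 and 20.58 in ctrl and 16.62, 15.76 and 16.06 in ML1 late. Every ML1 late library was at least 3 log2 units below every ctrl library, an 18.1-fold lower mean (log2 fold change −4.17, standard error 0.16, adjusted p = 3.79e-18, limma). Col1a2, the partner chain, fell by 3.85, and Sparc, a collagen-binding glycoprotein of bone, by 2.77. Sialoprotein Ibsp fell by 2.08, and the osteocyte genes Dmp1 and Phex by 1.55 and 1.90. Not all of the list went down. Spp1 (osteopontin) had 13.81, 13.88 and 14.07 in ctrl and 14.41, 14.17 and 13.89 in ML1 late and was not called (0.24, adjusted p = 0.388, limma), and the collagenase Mmp13 and Enpp1, the enzyme that makes pyrophosphate and so restrains mineralization, rose by 1.12 and 1.73. In bulk libraries such as these, fewer osteoblast-lineage cells and less RNA per cell cannot be told apart.

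Transcription factors of the osteoblast lineage fell unevenly, 8 of 13 tested lower and 1 higher (median −1.001). Rescaling to the library totals, which adds 0.82 to every change, takes away most of this median. Sp7 (Osterix), which is required for the step to a committed osteoblast, had 11.39, 11.50 and 11.49 in ctrl and 8.38, 7.55 and 8.09 in ML1 late. Its change of −3.46 (standard error 0.18, adjusted p = 3.12e-15, limma) was the largest of the list after Dlx3, a homeobox factor of bone (−3.96). Mef2c (−2.84), which acts with it in osteoblasts, also fell. Runx2, which acts earlier and opens the lineage, had 11.87, 11.71 and 12.06 in ctrl and 11.30, 11.18 and 11.02 in ML1 late. It moved by −0.71 (adjusted p = 1.63e-04, limma), far less than Sp7, and rescaling to the library totals turned this value to 0.11. Twist2, a factor that restrains osteoblast differentiation, rose by 2.41, while Twist1 of the same list fell by 1.85.

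Collagen chains are modified and folded in the endoplasmic reticulum before they leave the cell. Of 37 tested genes for these steps, 20 fell and 3 rose (median −0.50, which became 0.32 after rescaling to the library totals and 0.11 without rRNA and mitochondrial genes in the totals). Plod2, which hydroxylates collagen lysines, fell by 1.98, Creb3l1, a factor that drives collagen secretion in osteoblasts, by 1.53, the prolyl hydroxylase P3h1 by 1.31, and the collagen chaperone Serpinh1 by 1.16. The general chaperone Hspa5 (BiP) had 12.30, 12.16 and 12.69 in ctrl and 13.22, 13.43 and 13.61 in ML1 late, and Atf6, a sensor of misfolded protein, had 9.51, 9.55 and 9.45 and 10.60, 10.34 and 10.68. Both rose, by 1.04 and 1.03, while the collagen enzymes named above fell.

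Cartilage genes were the list with the lowest median of all those examined. Of 25 tested, 23 fell, none rose, and the median log2 fold change was −4.14. The exceptions, Cytl1 (−1.61) and Matn4 (−1.10), missed the threshold (adjusted p = 0.106 and 0.101, limma) and were called without ctrl replicate 375 (−1.91 and −1.74), while Matn4 moved to −0.55 without ctrl replicate 373. Col2a1 (ENSMUSG00000022483, chromosome 15 from 97975602 to 98004695), which encodes the main collagen of cartilage, had 16.96, 15.83 and 16.08 in ctrl and 11.70, 11.35 and 11.02 in ML1 late. All ML1 late libraries lay more than 4 log2 units below all ctrl libraries, a 30.6-fold lower mean (log2 fold change −4.93, standard error 0.30, adjusted p = 7.64e-14, limma). The collagen IX chains that coat its fibrils, Col9a3 (−5.43) and Col9a1 (−4.85), and the fibril-core chain Col11a2 (−4.85) fell by similar amounts.

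Prg4 (lubricin), a lubricant of joint surfaces, had 16.11, 17.15 and 17.09 in ctrl and 11.50, 11.97 and 11.90 in ML1 late. It fell by 4.99 (standard error 0.31, adjusted p = 1.36e-13, limma), with no overlap. Matn3, a matrilin that links cartilage fibrils, fell by 5.21, the large proteoglycan Acan (aggrecan) by 4.22, Comp, an oligomeric protein that binds collagen, by 4.51, and Col10a1, the collagen of hypertrophic chondrocytes, by 3.40. Sox9, the transcription factor that specifies chondrocytes, had 9.71, 9.44 and 9.54 in ctrl and 7.46, 5.93 and 7.34 in ML1 late, where replicate 582 stood below the others. Sox9 fell by 2.65 and its partners Sox5 and Sox6 by 2.33 and 2.62. Exons of Col9a3 overlap Tcfl5 and those of Prg4 overlap Tpr on the other strand, and although the methods counted reads by strand, the library kit in the labels is not known to mark it, so some doubt about such genes was kept. Summed over the list, cartilage genes stood at log2 values of 18.25, 18.12 and 18.24 in ctrl and 13.56, 13.51 and 13.38 in ML1 late. Prg4 had the highest mean of the list in ctrl, although Col2a1 was above it in replicate 373 (16.96 against 16.11).

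**Figure D2:**
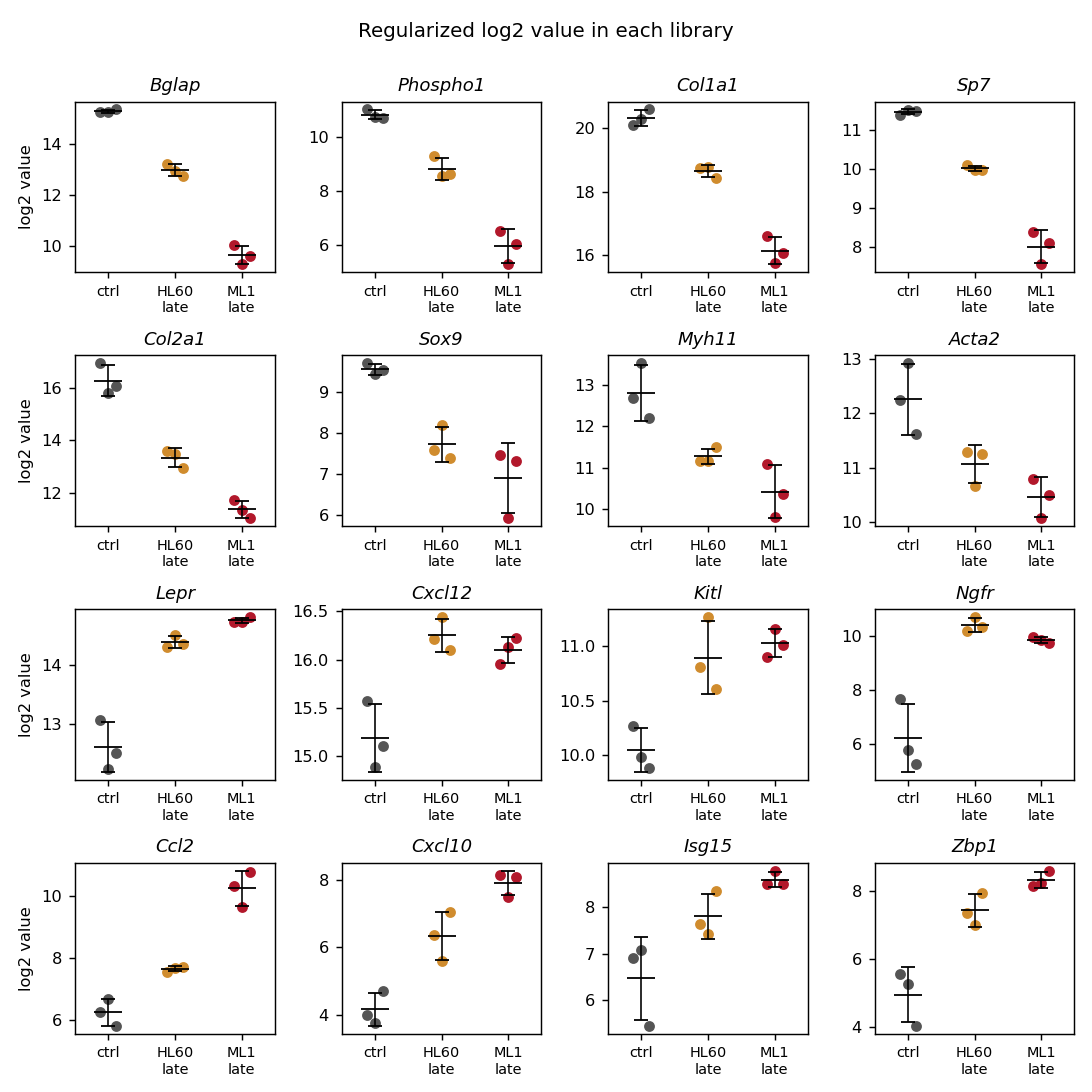
Each panel shows the regularized log2 value (vertical axis) of a gene in the 3 ctrl, 3 HL60 late and 3 ML1 late libraries (points), with the group mean and SD (bars); the vertical axes do not start at 0 and differ between panels. Bone and cartilage genes such as Bglap and Col2a1 are lowest in ML1 late, and Lepr, Ccl2 and Zbp1 are above all ctrl values there.

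Contractile genes of vascular smooth muscle were lower, 16 of 22 tested with none higher (median −1.35, and −0.54 after rescaling to the library totals). Myh11, the smooth muscle myosin heavy chain, had 12.68, 13.51 and 12.19 in ctrl and 11.09, 9.81 and 10.36 in ML1 late, and the actin Acta2 had 12.24, 12.92 and 11.61 and 10.80, 10.08 and 10.51. The groups did not overlap for either gene, and ctrl replicate 374 was the highest library in both. Myh11 fell by 2.37 (standard error 0.27, adjusted p = 5.66e-08, limma), Acta2 by 1.79, and Myocd, the coactivator that switches these genes on, by 2.12.

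Pericyte genes split. Of 15 tested, 4 rose and 7 fell (median −0.19, and 0.62 after rescaling to the library totals). Cspg4, which encodes the NG2 proteoglycan of arteriolar pericytes, had 10.40, 10.41 and 10.11 in ctrl and 8.61, 7.16 and 8.18 in ML1 late and fell by 2.33 (adjusted p = 9.56e-09, limma). Steap4, a metalloreductase, had 9.15, 9.11 and 8.95 and 11.38, 11.31 and 11.40 and rose by 2.29. The potassium channel subunit Abcc9 (1.36) and the receptor Notch3 (1.05) rose too, so the arteriolar marker went down while other pericyte genes went up.

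CAR cell genes moved the other way from bone genes. Of 23 tested, 18 rose and 2 fell (median 0.91). Lepr (ENSMUSG00000057722, chromosome 4 from 101717404 to 101815352), the leptin receptor, had 13.06, 12.24 and 12.50 in ctrl and 14.73, 14.73 and 14.81 in ML1 late. All ML1 late libraries lay above all ctrl libraries and close to one another, a 4.45-fold higher mean (log2 fold change 2.15, standard error 0.16, adjusted p = 7.15e-12, limma). Pdgfrb, the platelet-derived growth factor receptor of perivascular cells, rose by 2.29, and Ebf3 and Foxc1, transcription factors that maintain the CAR cell state, by 1.81 and 0.81. Ngfr (ENSMUSG00000000120, chromosome 11 from 95568818 to 95587735), the low-affinity nerve growth factor receptor used to isolate human marrow stroma, had 7.63, 5.74 and 5.24 in ctrl and 9.94, 9.83 and 9.72 in ML1 late. It rose by 3.62 (standard error 0.59, adjusted p = 2.47e-05, limma), and ctrl replicate 373 was the ctrl library closest to the ML1 late values. Pdgfra (−0.56) and the cadherin Cdh2 (−0.63) were the called members that fell, and rescaling to the library totals turned both (0.25 and 0.19).

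Factors that support blood stem and progenitor cells were not lost. Of 16 tested, 9 rose and 1 fell (median 0.76). Cxcl12 had 15.57, 14.89 and 15.11 in ctrl and 15.95, 16.13 and 16.22 in ML1 late, and Kitl (stem cell factor) had 10.27, 9.98 and 9.88 and 10.90, 11.16 and 11.02. For both, all ML1 late libraries lay above all ctrl libraries, with log2 fold changes of 0.91 (standard error 0.18, adjusted p = 3.51e-04, limma) and 0.98 (standard error 0.21, adjusted p = 6.94e-04, limma). Il34, a ligand of the macrophage growth factor receptor, rose by 1.77, Il7, which lymphoid precursors need, by 1.07, the adhesion molecule Vcam1 by 1.09, and Angpt1, a ligand of the Tie2 receptor, by 1.04. Bmp4 was the member that fell (−1.16).

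Adipocyte genes gave no common direction, 3 of 17 higher and 3 lower, 35.3% called against 22.0% of all tested genes (median 0.13, and −0.06 without ML1 late replicate 582). Pparg, the regulator that starts fat cell differentiation, had 6.44, 6.66 and 5.55 in ctrl and 7.92, 8.06 and 8.46 in ML1 late and rose by 1.93 (adjusted p = 4.05e-05, limma), with Cebpa (1.19). The lipid droplet coat gene Plin4 fell by 2.12. Adipoq, the hormone gene that CAR cells share with fat cells, was at 11.26, 10.57 and 10.71 in ctrl and 10.31, 10.83 and 10.62 in ML1 late (−0.26, not called).

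**Figure D3:**
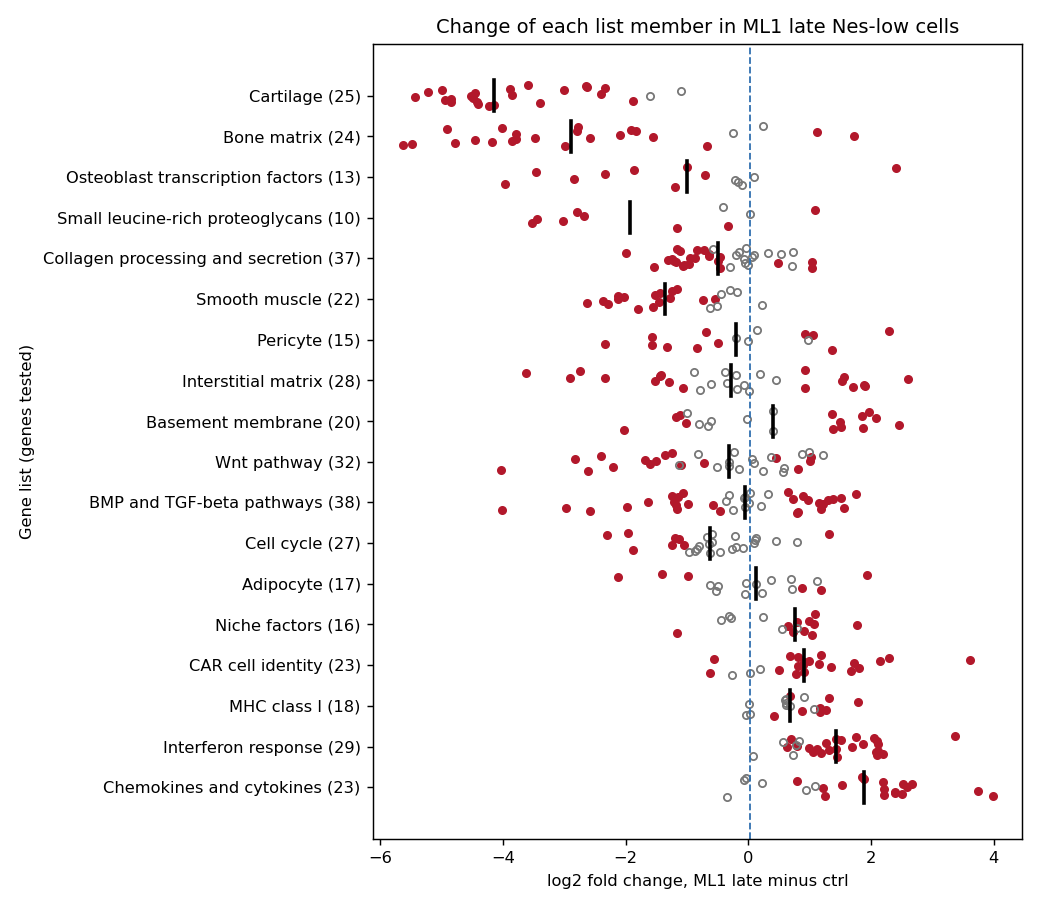
Each point is a tested gene, placed by its log2 fold change between ML1 late and ctrl (horizontal axis) within its gene list (vertical axis, number tested in brackets); filled points passed an adjusted p of 0.1, open points did not, black bars are list medians and the dashed line is the median of all tested genes. Cartilage (−4.14) and bone matrix (−2.89) have the lowest medians, and chemokines and cytokines (1.89) the highest.

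Transcripts of other matrix genes did not all change in 1 direction. Genes of basement membranes, the thin sheets of laminin and collagen IV beneath endothelium and around vessel cells, rose in 9 and fell in 4 of 20 tested (median 0.40). Col8a1, a short-chain collagen of vessel walls, had 12.03, 11.15 and 11.10 in ctrl and 14.17, 13.48 and 14.01 in ML1 late and rose by 2.46 (standard error 0.27, adjusted p = 2.57e-08, limma). The laminin chain Lama4 rose by 2.08, the linker Nid1 by 1.96, and Col4a1 and Col4a2, the common chains of collagen IV, by 1.87 and 1.51. Col15a1 (−2.02) and perlecan, Hspg2 (−1.02), fell.

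In the interstitial matrix, 8 of 28 tested genes rose and 9 fell (median −0.28, and 0.54 after rescaling to the library totals). Fn1 (fibronectin), the adhesive protein on which other fibrils assemble, had 16.40, 16.76 and 16.75 in ctrl and 14.01, 13.44 and 13.74 in ML1 late. It fell by 2.90 (standard error 0.19, adjusted p = 3.37e-13, limma), with no overlap. Fbn1, the fibrillin of microfibrils, went the other way, from 12.55, 11.94 and 12.12 in ctrl to 14.73, 14.85 and 14.85 in ML1 late, and rose by 2.60. Its relative Fbn2 fell by 2.34. The collagen VI chains Col6a1 and Col6a2 rose by 1.90 and 1.88, and the collagen III gene Col3a1 by 0.92, in contrast to collagen I.

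Small leucine-rich proteoglycans, which sit on collagen fibrils and set their width, mostly fell with collagen I. Of 10 tested, 7 fell and 1 rose (median −1.93). Dcn (decorin) had 14.84, 15.00 and 15.00 in ctrl and 12.02, 11.74 and 12.02 in ML1 late and fell by 3.02 (adjusted p = 1.81e-17, limma), with Fmod (fibromodulin) by 3.45 and Lum (lumican) by 2.68. Podn (podocan) was the member that rose (1.09). Among 29 tested proteases, cross-linkers and inhibitors, 12 rose and 8 fell. Mmp11 (stromelysin-3), often made by stroma around tumors, had 7.23, 7.06 and 8.03 in ctrl and 10.63, 10.94 and 10.40 in ML1 late and rose by 3.22 (standard error 0.29, adjusted p = 5.15e-10, limma). The plasminogen activator Plat rose by 2.16 and the gelatinase Mmp9 by 2.12, while the membrane-bound Mmp16 fell by 3.81. Mmp11 overlaps exons of Chchd10 on the other strand.

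Chemokines and inflammatory cytokines rose together. Of 23 tested, 17 rose, none fell, and the median was 1.89. Ccl2 (ENSMUSG00000035385, chromosome 11 from 82035571 to 82037453), the chemokine that draws monocytes out of the marrow, had 6.25, 6.67 and 5.81 in ctrl and 10.31, 9.64 and 10.75 in ML1 late. The mean was 15.9-fold higher in ML1 late (log2 fold change 3.99, standard error 0.40, adjusted p = 6.11e-09, limma), and its lowest library was almost 3 log2 units above the highest ctrl library. Cxcl10 (ENSMUSG00000034855, chromosome 5 from 92346638 to 92348889), an interferon-induced chemokine for activated T cells, averaged 4.16 ± 0.49 in ctrl and 7.90 ± 0.36 in ML1 late (SD, n = 3), with every ML1 late library at 7.48 or more and every ctrl library at 4.71 or less. It rose by 3.74 (standard error 0.49, adjusted p = 7.66e-07, limma) from values near the filter in ctrl, and exons of Art3 overlap it on the other strand.

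Members of the interleukin-6 family rose as well. Il6 itself had 4.82, 3.98 and 3.73 in ctrl and 6.33, 7.29 and 6.92 in ML1 late and rose by 2.67 (adjusted p = 7.12e-05, limma), Lif by 2.20 and Clcf1 by 2.51. Il1rn, which encodes a soluble blocker of the interleukin-1 receptor, was the most abundant gene of the list, with 11.18, 10.09 and 10.22 in ctrl and 12.84, 13.11 and 13.09 in ML1 late. It rose by 2.52 (adjusted p = 3.65e-09, limma), so a blocker of inflammation rose beside its mediators. The neutrophil chemokine Cxcl1 (2.39), the monocyte chemokine Ccl7 (2.21), Cx3cl1 (2.39), Cxcl9 (2.59) and Tnfaip3, which ends NF-κB signaling (1.85), rose too.

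Genes for secreted serine protease inhibitors of the Serpina3 cluster, induced by inflammation in many tissues, were among the largest increases. Serpina3h (ENSMUSG00000041449, chromosome 12 from 104247905 to 104253669) had 3.75, 3.41 and 4.40 in ctrl and 7.92, 7.86 and 8.01 in ML1 late. It rose by 4.07 (standard error 0.43, adjusted p = 1.65e-08, limma), with Serpina3f (3.59) and Serpina3i (3.28). The 3 genes lie close together on chromosome 12 and share much of their sequence, and the annotation lists Serpina3h as a transcribed pseudogene, so which copy the reads came from is uncertain.

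Interferon-stimulated genes rose in 24 of 29 tested, with none lower (median 1.43). Interferons switch on these genes, many of them antiviral, through transcription factors that bind a short DNA element. Isg15 (ENSMUSG00000035692, chromosome 4 from 156199424 to 156200818), a ubiquitin-like modifier, had 6.91, 7.07 and 5.44 in ctrl and 8.50, 8.78 and 8.49 in ML1 late. It rose by 2.12 (standard error 0.40, adjusted p = 1.93e-04, limma), with ctrl replicate 375 the lowest library. Zbp1 (ENSMUSG00000027514, chromosome 2 from 173206612 to 173218923), a sensor of left-handed nucleic acids, had 5.56, 5.27 and 4.03 in ctrl and 8.14, 8.24 and 8.59 in ML1 late and rose by 3.37 (standard error 0.38, adjusted p = 5.47e-08, limma). Ifi207, a member of the interferon-inducible p200 family that was not in the counted list, rose by 3.60. The guanylate-binding proteins Gbp2 and Gbp3 rose by 2.10 and 2.19, Ifit1 by 2.12 and Oasl2 by 2.11. Of the regulators, Irf7 rose by 1.69 and Stat2 by 1.43. Irf9 rose by 0.79 and was not called without ctrl replicate 374 or 375 or without any 1 of the ML1 late libraries (0.69 to 0.80).

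Genes for antigen presentation by MHC class I moved less. Of 18 tested, 8 rose and none fell (median 0.68). The immunoproteasome subunit Psmb9 had 5.05, 5.98 and 4.27 in ctrl and 6.91, 6.74 and 7.04 in ML1 late and rose by 1.79 (adjusted p = 0.00599, limma), the peptide transporter Tap1 by 1.32 and the class I heavy chain H2-K1 by 1.27. Psmb9 and Tap1 overlap on opposite strands, and H2-K1 shares sequence with the other class I genes, so its separate value is uncertain. The light chain B2m had 13.38, 12.88 and 13.04 and 13.62, 13.35 and 13.58, a change of 0.42 that was not called without ctrl replicate 374 (0.31).

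For tested members of the interferon, chemokine and cytokine, MHC class I, bone matrix and cartilage lists, changed or not, promoter letters were read. The 250 bases before the annotated starts (RefSeq, GRCm38.p6) were searched on both strands. The letters sought were GAAA, any 2 bases and GAAA, the core of the interferon-stimulated response element, GGGA, any base and TTTCC, an NF-κB motif, and TGTGGTT, a RUNX motif. Each was chosen after the changes were seen. The interferon list is made of genes known to answer to interferon, and the chemokine and cytokine list includes NF-κB feedback genes. A high share of the matching motif in these lists follows from how they were made and does not bear on why their members changed here. Of the 29 tested interferon-stimulated genes, 24 had an entry, with 28 promoters, and 12 of these (42.9%) held the response element, as did 978 of all 32851 promoters (2.98%). The NF-κB motif was in 4 of 21 promoters of the chemokine and cytokine list (19.0%), 1 of 18 of the MHC class I list (5.56%), none of the interferon, bone matrix and cartilage lists and 117 of all promoters (0.356%). TGTGGTT was in 3 of 23 promoters of the bone matrix list, those of Dmp1, which fell, Mmp13, which rose, and Spp1, which was not called. It was in 2 of 28 of the interferon and of the cartilage list (7.14% each), 1 of 21 of the chemokine and cytokine list (4.76%), 1 of 18 of the MHC class I list (5.56%) and 1444 of all promoters (4.40%). A match describes the letters of these windows and is not a measured binding site. Only the stated spelling of each motif was searched, so a window or list without a match, such as Cxcl10 for NF-κB, may hold other forms of it. The response element was also in 2 of 21 promoters of the chemokine and cytokine list (9.52%), 2 of 18 of the MHC class I list (11.1%), 2 of 23 of the bone matrix list (8.70%) and none of 28 of the cartilage list. The windows of Isg15 (chr4:156200819-156201068, minus strand), Ifit1 (chr19:34640639-34640888, plus strand), Gbp2 (chr3:142620413-142620662, plus strand) and Cxcl10 (chr5:92348890-92349139, minus strand), with the response element, and of Il6 (chr5:30012864-30013113, plus strand) and Cxcl1 (chr5:90890995-90891244, plus strand), with the NF-κB motif, are shown 5′ to 3′ on the strand of the gene. Bases that match the response element or the NF-κB motif are in capitals, and the TGTGGTT match of Gbp2 is left in lower case.
Isg15: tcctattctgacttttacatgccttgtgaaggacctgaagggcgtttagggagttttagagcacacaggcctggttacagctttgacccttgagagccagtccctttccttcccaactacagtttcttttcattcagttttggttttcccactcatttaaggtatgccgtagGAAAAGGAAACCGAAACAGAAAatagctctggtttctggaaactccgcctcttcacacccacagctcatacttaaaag
Ifit1: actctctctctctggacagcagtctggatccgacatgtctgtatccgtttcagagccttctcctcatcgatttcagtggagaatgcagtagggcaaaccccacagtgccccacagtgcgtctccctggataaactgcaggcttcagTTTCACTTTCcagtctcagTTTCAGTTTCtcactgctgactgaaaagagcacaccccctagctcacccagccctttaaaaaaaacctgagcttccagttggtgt
Gbp2: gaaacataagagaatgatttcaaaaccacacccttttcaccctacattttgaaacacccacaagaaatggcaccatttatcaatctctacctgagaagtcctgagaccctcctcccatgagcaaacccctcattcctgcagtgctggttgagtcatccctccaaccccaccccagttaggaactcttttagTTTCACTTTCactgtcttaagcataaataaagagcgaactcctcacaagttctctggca
Cxcl10: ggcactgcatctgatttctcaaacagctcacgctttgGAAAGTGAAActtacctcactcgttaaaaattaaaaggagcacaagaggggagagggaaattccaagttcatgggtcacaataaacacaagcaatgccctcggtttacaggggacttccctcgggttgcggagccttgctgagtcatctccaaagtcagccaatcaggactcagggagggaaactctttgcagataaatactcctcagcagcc
Il6: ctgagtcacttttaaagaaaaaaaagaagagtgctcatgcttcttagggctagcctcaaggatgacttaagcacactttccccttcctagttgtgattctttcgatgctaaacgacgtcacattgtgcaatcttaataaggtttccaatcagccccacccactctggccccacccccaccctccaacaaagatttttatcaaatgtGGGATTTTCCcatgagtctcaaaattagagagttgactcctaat
Cxcl1: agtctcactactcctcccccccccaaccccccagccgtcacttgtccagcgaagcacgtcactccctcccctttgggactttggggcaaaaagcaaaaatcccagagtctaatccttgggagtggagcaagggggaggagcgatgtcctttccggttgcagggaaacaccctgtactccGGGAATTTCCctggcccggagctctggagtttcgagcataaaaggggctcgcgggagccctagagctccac

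Immediate early genes, which respond within minutes to growth factors, stress and cell dissociation, rose in 10 and fell in 3 of 28 tested (median 0.20). Maff, a small Maf factor, had 4.30, 5.01 and 5.10 in ctrl and 7.39, 7.12 and 8.23 in ML1 late and rose by 2.78 (adjusted p = 1.18e-05, limma). The AP-1 genes Fosl1 and Jun rose by 2.34 and 1.33, while Fos was at 13.05, 13.32 and 13.23 in ctrl and 13.31, 13.32 and 13.55 in ML1 late and was not called (0.20). Nr4a2, an orphan nuclear receptor, fell by 2.04. Of 19 tested oxidative stress genes, 9 rose and none fell, led by heme oxygenase Hmox1 (1.61) and sulfiredoxin Srxn1 (1.58).

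Signaling pathways of bone changed in some of their parts. Among 32 tested Wnt genes, 4 rose and 12 fell (median −0.32, and 0.50 after rescaling to the library totals). Frzb, a secreted Wnt antagonist of cartilage, had 7.35, 7.99 and 8.29 in ctrl and 4.76, 3.20 and 3.57 in ML1 late and fell by 4.03 (adjusted p = 1.34e-08, limma), the antagonist Dkk1 by 2.61, the agonist Rspo4 by 2.83 and the transcription factor Tcf7 by 2.40. The antagonist Sfrp4, the most abundant of the list by mean, rose by 1.02. Of 38 BMP and TGF-β genes, 14 rose and 14 fell. Bmp3, an antagonist of bone formation made by osteoblasts, had 12.73, 12.47 and 12.77 in ctrl and 8.96, 8.63 and 8.34 in ML1 late and fell by 4.01 (adjusted p = 6.88e-17, limma). Bmp7 (−2.97) and the decoy receptor Bambi (−2.58) fell too, and the ligands Tgfb3 (1.76) and Bmp6 (1.56) rose.

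Among 19 tested genes of the Notch and hedgehog pathways, receptors, ligands and targets together, 5 rose and 5 fell. The Notch targets Hey1, at 7.03, 5.98 and 7.36 in ctrl and 9.12, 9.32 and 9.42 in ML1 late, and Heyl rose by 2.499 and 2.45 (adjusted p = 7.68e-07 and 3.41e-12, limma), and the receptor Notch1 by 1.70. The hedgehog targets Gli1, Ptch1 and Hhip changed by −1.65, −1.41 and −3.37. In the insulin-like growth factor list, 7 of 14 rose, led by the binding protein Igfbp3 (2.14), and 5 fell, led by the ligand Igf2 (−1.76).

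Of 27 tested factors that act on vessels, 8 rose and 13 fell (median −0.79, and 0.03 after rescaling to the library totals). The guidance ligands Sema3d and Sema3c fell by 3.83 and 3.46, and Cnmd, an inhibitor of vessel growth in cartilage, by 4.41. Angpt2, a ligand that loosens vessels, had 8.64, 8.83 and 9.44 in ctrl and 10.52, 10.63 and 10.62 in ML1 late and rose by 1.62, with Angptl4 (1.53). Vegfa, the main endothelial growth factor, had 9.24, 9.22 and 8.92 and 9.42, 9.20 and 9.35 and was not called (0.20, adjusted p = 0.619, limma). Among 29 glycolytic and hypoxia genes, 4 rose and 6 fell (34.5% called against 22.0% of all tested genes), the glucose transporter Slc2a3 leading the increases (1.47).

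Of 27 tested proliferation genes, 7 fell and 1 rose, 29.6% called against 22.0% of all tested genes (median −0.62, and 0.20 after rescaling to the library totals). Top2a, a topoisomerase of dividing cells, had 7.87, 6.56 and 8.68 in ctrl and 5.92, 5.68 and 4.60 in ML1 late and fell by 2.31 (adjusted p = 4.47e-04, limma), and Tyms, which makes thymidylate, was the member that rose (1.32). Subunits and regulators of the sodium-potassium ATPase fell in 6 of 10 tested, with none higher, among them Fxyd6 (−2.39) and Atp1b3 (−2.10).

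Of 13 tested genes of the mitochondrial genome, 1 rose and 1 fell (median −0.30, and 0.51 after rescaling to the library totals). Of 23 genes of cholesterol synthesis, 2 rose and 3 fell, of 18 p53 and senescence genes 1 rose and 3 fell, and of 17 clock genes 4 rose and 1 fell. The called shares of these lists were 15.4%, 21.7%, 22.2% and 29.4%, against 22.0% of all tested genes. None of 5 RNAs kept in the nucleus was called, at summed levels of 15.57, 15.87 and 16.23 in ctrl and 15.93, 16.75 and 15.65 in ML1 late, where replicate 582 was the highest.

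A few of the largest changes belong to none of these groups. Cldn1, a tight junction protein, had 7.56, 6.67 and 5.72 in ctrl and 9.50, 10.24 and 10.06 in ML1 late and rose by 3.28 (adjusted p = 1.22e-07, limma). Tmem140, a transmembrane protein, rose by 3.20, although exons of Cyren overlap it on the other strand. Apbb1ip, an adaptor that links Rap1 to integrin activation, rose by 3.14. Prss35, a serine protease-like secreted protein, had 10.97, 10.31 and 10.63 in ctrl and 6.60, 5.22 and 5.54 in ML1 late and fell by 4.85 (adjusted p = 2.95e-15, limma).

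Markers of other cell types were read next, among them blood, red and endothelial cells, which the bead depletion and the CD45, Ter119 and CD31 stains were there to set apart. Of 17 tested endothelial markers, 8 fell and none rose (median −0.93, most of which the 0.82 added by rescaling to the library totals takes away). Their summed log2 level was 10.52, 10.73 and 10.84 in ctrl and 10.00, 10.14 and 10.13 in ML1 late, led by Eng, which mesenchymal cells also express. Of 16 myeloid markers, 3 fell and 1 rose, 25% called against 22.0% of all tested genes (median −0.22, and 0.60 after rescaling to the library totals), at summed levels of 9.33, 8.70 and 9.68 in ctrl and 8.83, 8.86 and 9.15 in ML1 late, with Lyz2 the most abundant. The myeloid marker that rose was Cybb, a subunit of the phagocyte oxidase, with 5.72, 4.62 and 4.06 in ctrl and 7.73, 7.14 and 7.86 in ML1 late (2.77, adjusted p = 1.88e-04, limma), and Adgre1, a defining macrophage marker, stayed under a log2 value of 1 in all 6 libraries.

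Red cell markers fell in 6 of 14 tested, with none higher (median −0.49, and 0.33 after rescaling to the library totals). Their summed level was 8.87, 9.31 and 9.78 in ctrl and 7.62, 7.64 and 7.60 in ML1 late, led by the hemoglobin gene Hbb-bs, and Gata1 was under 1 in all 6 libraries. Osteoclast markers fell in 3 of 5 tested (median −0.75, and 0.06 after rescaling to the library totals), from 10.02, 10.18 and 10.27 to 10.00, 9.83 and 9.82 in summed level, led by Nfatc1, with Ocstamp and Oscar under 1 throughout. Markers of tendon, periosteal and other fibroblasts fell in 8 of 11, from 13.20, 13.14 and 13.29 to 11.98, 11.95 and 11.90, led by Fap.

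Of 11 skeletal muscle markers, 3 were called, all lower, 27.3% against 22.0% of all tested genes. Their median was −0.59, ran from −0.97 to −0.22 in fits without 1 library, and was 0.23 after rescaling to the library totals. The summed levels were 8.77, 9.40 and 8.81 in ctrl and 7.84, 7.72 and 7.60 in ML1 late, led by Xirp1. Of 8 Schwann cell markers, 2 were called, both lower, a share of 25% (median −0.52, but 0.29 after rescaling to the library totals and 0.01 without ctrl replicate 374), at 11.47, 11.48 and 10.91 and 10.03, 10.16 and 10.46, led by Pmp22, with Gfap under 1 throughout. Of 9 lymphocyte markers in the table, 7 were under 1 in all 6 libraries and 1 was tested, the immunoglobulin gene Ighm, which fell by 2.26 (summed levels 6.40, 7.51 and 6.20 in ctrl and 5.21, 5.08 and 4.41 in ML1 late). Of 8 megakaryocyte markers, 2 were tested and none was called, at 5.73, 4.97 and 5.46 and 5.11, 4.92 and 4.96, led by Gp1bb, with Gp9 and Treml1 under 1 throughout. The part of these cells in the bone, cartilage and smooth muscle results was not tested.

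ML1 late was also compared directly with HL60 late, to see where the late change differed between the leukemias. Of the 12980 genes, 532 differed (4.10%, limma, adjusted p under 0.1), 122 of them higher in ML1 late (0.940%) and 410 lower (3.16%). The line, the mice and any difference in sorting or sequencing run cannot be told apart in this comparison. Rescaling to the library totals gave 706 genes, 63.0% of them higher against 22.9% as deposited, and leaving rRNA and mitochondrial genes out of the totals gave 53.1% higher.

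Bone genes were lower in ML1 late than in HL60 late, 19 of 24 tested, against 3.16% of all tested genes (median −1.89). Bglap had 13.24, 12.94 and 12.77 in HL60 late, between the ctrl and the ML1 late values, and differed by −3.32 (standard error 0.15, adjusted p = 1.09e-15, limma). Phospho1 (−2.88), Slc13a5 (−2.89), Col1a1 (−2.50) and Sp7 (−2.01) were lower too. Of the cartilage genes, 13 of 25 were lower than in HL60 late (median −1.60), among them Col11a2 (−2.58), Prg4 (−2.31) and Col2a1 (−1.99). For Col9a3 (−2.62) and Matn3 (−2.10) the call was lost without HL60 late replicate 397 or 398 or ML1 late replicate 583, and for Col9a3 also without replicate 581 (−2.58 to −2.22 and −1.99 to −1.52 where lost). Summed over the list, cartilage genes stood at 15.54, 15.99 and 15.29 in HL60 late, between the ctrl and the ML1 late levels given above.

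Inflammatory genes differed less. Over all tested genes, 0.940% were higher in ML1 late than in HL60 late and 3.16% lower. Of the chemokine and cytokine list, 7 of 23 were higher and 1 lower. In the interferon list 1 of 29 was higher, Irf9 (1.08, not called without HL60 late replicate 398, 0.99). The immediate early list, which also answers to cell dissociation and stress, moved with them, 11 of 28 higher and 1 lower (median 0.53). Ccl2 had 7.55, 7.69 and 7.69 in HL60 late, below every ML1 late library, and was higher in ML1 late by 2.59 (standard error 0.40, adjusted p = 5.39e-05, limma). Cxcl10 (1.56) was higher too, but not without HL60 late replicate 397 or 398 or any 1 of the ML1 late libraries (1.198 to 1.77). The same held for Il6 (1.47) without HL60 late replicate 397 or 399 or ML1 late replicate 582 or 583 (1.14 to 1.53) and for Cxcl1 (1.39) without HL60 late replicate 397 (1.23) or ML1 late replicate 583 (1.16). Mmp9 was higher by 1.92. The CAR cell genes Lepr (14.29, 14.51 and 14.36 in HL60 late) and Ngfr (10.17, 10.69 and 10.33) did not pass the threshold between the leukemias (0.37 and −0.57, adjusted p = 0.326 and 0.896, limma), which does not show that they were alike.

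Means in the early ML1 groups place the late values. Bglap averaged 14.90 in ch+ and 15.17 in ch- ML1 libraries, near ctrl (15.29 ± 0.06, SD, n = 3) and far above ML1 late (9.66 ± 0.36, SD, n = 3). Cartilage genes did not stand alike against ctrl in ch+ libraries. Col2a1 averaged 13.28 there (16.29 ± 0.60 in ctrl, SD, n = 3) and Col9a3 5.94, near ML1 late (5.32 ± 0.86). Col9a1 (5.87 against 6.22 in ML1 late), Acan (7.35 against 7.58) and Sox9 (6.96 against 6.91) were near ML1 late as well. Col11a2, at 13.59, was nearer to ctrl (14.31) than to ML1 late (9.47), and Prg4, at 18.25, was above its ctrl mean (16.79 ± 0.58). In ch- libraries, Col2a1 averaged 15.20, Col9a3 9.61 and Prg4 14.32, each below its ctrl mean. Among smooth muscle genes in ch+ libraries, Myh11 (9.63) and Acta2 (9.45) averaged below their ML1 late means (10.42 and 10.46), and Ldb3 (6.06) above its own (4.81). Lepr averaged 13.52 in ch+ and 13.17 in ch- libraries (12.60 ± 0.42 in ctrl). Ccl2 averaged 7.27 in ch+ and 6.70 in ch-, against 10.23 ± 0.56 in ML1 late (SD, n = 3). These early values are given as a description and were not tested here.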

How the data were processed

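The deposited table of regularized log2 values (STAR 2.5.1b, RSEM 1.2.29 and DESeq2 1.10.1 by the authors according to the labels, mm10) was used as deposited, and the paper names a later version of the last tool. Genes with a mean of at least 3.32 over 21 libraries were tested, 12980 of 26852. Limma 3.58.1 in R 4.3.3 fitted 7 groups to all 21 libraries with a mean-variance trend and 14 residual degrees of freedom, and 2 contrasts were read, ML1 late minus ctrl and ML1 late minus HL60 late. The paper takes ch+ and ch- cells from the same marrow, so early libraries may share mice. The fit treated all libraries as independent. Adjusted p is Benjamini-Hochberg over all tested genes, called under 0.1, two-sided. Fold changes are differences of group means on the log2 scale, ± is SD, and standard errors come from limma. The libraries and gene lists were chosen with earlier results of these data known. Sums over a list are log2 of the summed unlogged values. Named genes are the 12 in each direction with the largest called change, no overlap between groups and a mean of at least 6 in the higher group and a symbol that is not a clone, predicted or Riken name (which leaves out AY036118), together with members of the lists, some of them chosen after their values were seen. Promoter letters come from RefSeq records of GRCm38.p6. Python 3.11.15 with pandas 2.3.3 and matplotlib 3.10.9 drew the figures.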

Additional observations from a re-analysis of the deposited data

Results flagged for a closer look

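ML1 late was tested directly against HL60 late for each gene named above, and 68 of them differed at an adjusted p under 0.1 (limma), 44 of these in every fit that left out 1 library. Values are log2 fold changes, ML1 late minus HL60 late, negative where ML1 late was lower. For bone matrix and osteoblast factors these were Bglap (−3.32), Bglap2 (−3.15), Phospho1 (−2.88), Bglap3 (−2.62), Col1a1 (−2.50), Col1a2 (−2.26), Ifitm5 (−2.20), Dlx3 (−2.19), Alpl (−2.11), Sp7 (−2.01), Smpd3 (−1.89), Dmp1 (−1.77), Sparc (−1.47), Ibsp (−1.25), Mef2c (−1.23) and Phex (−1.003), all lower in ML1 late, and Enpp1 (0.71), higher. For cartilage they were Col11a2 (−2.58), Comp (−2.34), Prg4 (−2.31) and Col2a1 (−1.99). For other matrix, protease and secretory genes, Fmod (−2.25), Mmp16 (−2.17), Dcn (−1.80), Fbn2 (−1.55), Lum (−1.46), Plod2 (−1.01) and Fn1 (−0.94) were lower and Col6a1 (0.77), Col6a2 (0.77), Hspa5 (0.81) and Mmp9 (1.92) higher. Of the remaining genes, Slc13a5 (−2.89), Bmp3 (−2.58), Prss35 (−2.29), Sema3d (−1.81), Sema3c (−1.78), Dkk1 (−1.66), Bmp7 (−1.61), Bmp4 (−1.27), Bambi (−1.27) and Atp1b3 (−0.81) were lower in ML1 late and Jun (0.93) and Ccl2 (2.59) higher.

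For 24 of the 68, the difference no longer passed the threshold in at least 1 fit without a library, and each is given with its value in those fits. The first, lower in ML1 late, were Col9a3 (−2.62, and −2.58 to −2.22 without HL60 late 397, 398 or ML1 late 581, 583), Matn3 (−2.10, and −1.99 to −1.52 without HL60 late 397, 398 or ML1 late 583), Ighm (−1.75, and −1.47 to −1.37 without HL60 late 397 or ML1 late 583), Hhip (−1.53, and −1.55 to −1.35 without HL60 late 397, 398 or ML1 late 581, 583), Frzb (−1.46, and −1.33 to −1.14 without HL60 late 397, 399 or ML1 late 582, 583) and Nr4a2 (−0.99, and −0.95 to −0.85 without HL60 late 397, 398 or ML1 late 582, 583). Others were Myh11 (−0.85, and −0.91 to −0.54 without any HL60 late library or ML1 late 582, 583), Spp1 (−0.62, and −0.48 to −0.38 without HL60 late 398 or ML1 late 583), Fos (0.45, and 0.38 to 0.42 without HL60 late 397 or ML1 late 583), Col4a2 (0.47, and 0.40 to 0.48 without any HL60 late library or ML1 late 581, 583), Col4a1 (0.50, and 0.40 without ML1 late 583) and Lama4 (0.55, and 0.49 to 0.56 without HL60 late 397, 398 or ML1 late 581, 583). Higher in ML1 late were also Steap4 (0.57, and 0.46 to 0.60 without HL60 late 397, 399 or any ML1 late library), Pdgfrb (0.58, and 0.50 to 0.53 without HL60 late 398 or ML1 late 583), Irf9 (1.08, and 0.99 without HL60 late 398), Tnfaip3 (1.16, and 0.92 to 1.25 without any HL60 late library or ML1 late 581, 583), Maff (1.38, and 1.06 to 1.48 without HL60 late 397, 398 or ML1 late 581, 583) and Cxcl1 (1.39, and 1.16 to 1.23 without HL60 late 397 or ML1 late 583). The rest, higher too, were Il6 (1.47, and 1.14 to 1.53 without HL60 late 397, 399 or ML1 late 582, 583), Cxcl10 (1.56, and 1.198 to 1.77 without HL60 late 397, 398 or any ML1 late library), Lif (1.57, and 1.11 to 1.70 without any HL60 late library or ML1 late 582), Ccl7 (1.63, and 1.32 to 1.80 without any HL60 late library or ML1 late 582, 583), Cybb (1.91, and 1.56 to 1.83 without HL60 late 397 or ML1 late 581, 583) and Fosl1 (1.91, and 1.49 to 2.03 without HL60 late 398 or any ML1 late library).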

How the results depend on the processing

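Against ctrl, 150 of the 153 named genes that passed the test did so in every fit without 1 library, and the total count was 2203 to 2674 in these fits. It was 2549 with genes filtered at a mean of 5, 2825 without a filter, 2856 after quantile normalization, 3008 with only the 6 libraries in the fit, 2725 without the mean-variance trend, 2859 with robust variances, 3154 with array weights and 2283 at an adjusted p under 0.05. It was 1901 where changes also had to reach 1 on the log2 scale, which by construction can only lower it. Rescaling to library totals gave 8783, and 6958 with rRNA and mitochondrial genes left out of the totals, since the rescaling adds a median of 0.82 or 0.61 to every gene. It changed the sign of the median in 16 or 13 of 39 lists, quantile normalization in none, and leaving out 1 library in 8 in at least 1 fit. Some medians kept their sign in these fits but moved in size, such as those of the pericyte (−0.33 to −0.02), interstitial matrix (−0.33 to −0.14), Wnt (−0.56 to −0.21), proliferation (−0.91 to −0.40) and mitochondrial (−0.52 to −0.19) lists. Under rescaling to totals the log2 fold changes of Adipoq (0.55), Cdh2 (0.19), Pdgfra (0.25), Ptprc (0.65) and Runx2 (0.11) became positive, as did the medians of the secretory (0.32) and osteoclast (0.065) lists. With rRNA and mitochondrial genes left out, Adipoq (0.34), Pdgfra (0.042), Ptprc (0.44) and the secretory median (0.11) did. Against HL60 late the count was 383 to 453 in fits without 1 library, 551 and 426 with the higher and no filter, 514, 706 and 642 under the normalizations, 393 without the trend, 541 with robust variances and 413 at 0.05. It rose to 991 with only the 6 libraries in the fit and to 1184 with array weights, and the cause was not tested, and fell to 353 with a log2 fold change of at least 1. Where a fit without 1 library left 2 in a group, the spread was pooled over all groups. No paired analysis was possible because the groups share no replicate numbers. The deposited values cannot be taken back to reads, and regularization shrinks differences of genes with few reads, so changes of low genes may be understated.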
